A study of Mus musculus with 12 samples.

Results

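Astrocytes of mice that lack Nmnat2 in cortical glutamatergic neurons were compared between animals with 1 null allele of Sarm1 (cKO;S/+, labelled cKOA) and animals with 2 (cKO;S/S, labelled cKOB), across all 15089 genes of the deposited count table. The 8 libraries, 4 per genotype and 1 per mouse, were taken by their genotype labels out of 12 in the series. The cKO;S/+ mice were Nmnat2 f/f, NexCre+/- and Sarm1+/-, and the cKO;S/S mice were Nmnat2 f/f, NexCre+/- and Sarm1-/-. The 4 remaining libraries are controls (ctrl-2) that the labels give as Nmnat2 f/+, NexCre+/- and Sarm1+/-, although the methods of the study allow them 0 or 1 null allele of Sarm1, and their values stand beside those of the mutants. Every mouse carried the Nex-Cre driver, which acts in post-mitotic glutamatergic neurons of the cortex and hippocampus, so the sorted astrocytes kept their own Nmnat2 alleles, whereas the Sarm1 null allele was present in all cells. Cortices were taken on postnatal day 16, dissociated and cleared of dead cells and debris, and the suspension was sorted on magnetic beads that carry antibody to ACSA-2, a surface antigen of astrocytes. What was sequenced is therefore the total RNA of the bead-bound fraction, in which other cells can be present.

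NMNAT2 makes NAD in axons, and SARM1 is an NAD hydrolase that becomes active when the NAD precursor NMN accumulates and NAD declines. Loss of NMNAT2 therefore leads to degeneration of axons through SARM1, and removal of SARM1 protects them. Microglia and astrocytes respond to degenerating axons. Microglia that engulf debris switch on a set of genes known as the disease-associated programme, which includes Itgax, Clec7a, Cst7, Spp1 and Lpl, and reactive astrocytes raise intermediate filament genes such as Gfap. The comparison asks how the RNA of the astrocyte fraction differs when the second functional copy of Sarm1 is also missing.

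The library labelled cKO;S/+ replicate 14 stood apart from the other cKO;S/+ libraries and lay among those of cKO;S/S. On the first principal component, which held 37.0% of the variance of the 12 libraries, cKO;S/+ replicates 8, 9 and 10 had scores of 39.5, 34.2 and 42.1 and replicate 14 had -15.1, against -16.4, 6.56, 4.59 and -25.7 in cKO;S/S replicates 15, 16, 17 and 18. The mean correlation of replicate 14 across genes was 0.972 with the other cKO;S/+ libraries and 0.985 with the cKO;S/S libraries. For the genes described, fitted values are therefore also given without this library. Since the library was set aside by the same expression values, adjusted p and calls without it describe the remaining libraries and are not independent tests. The Xist transcript, which female cells express, was above 10 CPM (counts scaled to library size, with TMM factors) in cKO;S/+ replicates 8, 9 and 10, in cKO;S/S replicates 16 and 17 and in ctrl-2 replicate 7, so replicate 14 is also the only cKO;S/+ library without it. Sex and genotype are therefore partly confounded. Total counts ran from 17861292 to 22159404 in cKO;S/+ and from 16506627 to 20499537 in cKO;S/S. The 20 astrocyte markers summed to 30286 to 37246 CPM in cKO;S/+ replicates 8, 9 and 10 and 31393 CPM in replicate 14, against 22752 to 35953 CPM in cKO;S/S and 35149 to 39312 CPM in ctrl-2, so the labelled cell type was present at a high level in all libraries, and no marker was at 0.

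Neither targeted gene separated the genotypes when all libraries were used. Sarm1 (Entrez 237868, chromosome 11, 78470273 to 78497816) had 10.1, 9.27, 9.66 and 6.13 CPM in cKO;S/+, against 7.1, 4.82, 5.22 and 7.22 CPM in cKO;S/S (replicates in the orders 8, 9, 10, 14 and 15, 16, 17, 18, as in all lists of levels here), and 5.73 to 12.8 CPM in ctrl-2. Replicate 14 lay within the cKO;S/S values, and the other 3 cKO;S/+ libraries lay above all of them. The difference (a log2 fold change of 0.53, SE 0.24, unadjusted p = 0.0501) did not pass an exact two-sided permutation test on CPM (p = 0.0857, where 0.0286 is the smallest p that 4 against 4 libraries allow). Without replicate 14 the log2 fold change of Sarm1 was 0.67 (adjusted p = 0.0944). With Xist as a covariate over all libraries, Sarm1 was not called (log2 fold change 0.62, adjusted p = 0.249). Sarm1 was called in 2 fits that take account of Xist and also lack replicate 14. Its log2 fold change was 0.93 (adjusted p = 0.0224) in the libraries that express Xist alone and 1.03 (adjusted p = 0.0199) without replicate 14 and with Xist as a covariate. Over all alternatives its log2 fold change ran from 0.26 to 1.03 and its adjusted p from 0.0199 to 1. The sources used here do not give the exons that the null allele lacks, so reads over the whole gene do not decide the label. Nmnat2 (Entrez 226518, chromosome 1, 152954781 to 153119266), which Cre removes from neurons and not from astrocytes, had 20.9, 20.7, 20.3 and 29.4 CPM in cKO;S/+, against 42.6, 19.9, 31.2 and 26.5 CPM in cKO;S/S, and 35.6 to 42.4 CPM in ctrl-2. Its groups overlapped (a log2 fold change of -0.40, SE 0.19, unadjusted p = 0.0572, exact permutation p = 0.257), and the log2 fold change was -0.55 without replicate 14 (adjusted p = 0.0861). Of the 129 genes within 5 Mb of Sarm1, 21 had a p under 0.05 before adjustment (16.3%, against 18.3% of all genes), and without replicate 14 there were 16 called (12.4%, against 11.1% of all genes).

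With all libraries, no gene passed an adjusted p of 0.05 in edgeR's quasi-likelihood test (0 higher and 0 lower of 15089, that is 0%). The smallest adjusted p was 0.143 and was shared by 37 genes. Before adjustment, 1383 genes had a p under 0.05 and were higher in cKO;S/+ (9.17%), and 1375 were lower (9.11%). The libraries of the genotypes did not overlap for 402 genes that were higher (2.66%) and 425 that were lower (2.82%), together 5.48%. Other tests on the same counts differed in their calls, with 303 higher (2.01%) and 173 lower (1.15%) by edgeR's likelihood ratio test, 396 higher (2.62%) and 229 lower (1.52%) by DESeq2, and 0 and 0 by limma-voom, where 1344 (8.91%) and 1439 (9.54%) were under 0.05 before adjustment. When the library labelled cKO;S/+ replicate 14 was left out, the quasi-likelihood test called 865 genes higher (5.73%) and 812 lower (5.38%), and 12.8% and 13.6% of genes had an unadjusted p under 0.05. These calls hold 461 of the 476 genes called by the likelihood ratio test (96.8%) and 595 of the 625 called by DESeq2 (95.2%), in the same direction. In the libraries that express Xist alone (cKO;S/+ replicates 8, 9 and 10 against cKO;S/S replicates 16 and 17, with ctrl-2 replicate 7 in the fit), 325 were called higher and 393 lower, and 615 of these 718 (85.7%) were among the calls made without replicate 14, where 11.1% of all genes were called. All these fits share counts, and the one on Xist also lacks replicate 14, so the overlaps are not independent support. The median log2 fold change of all genes was 0.0037, and 0.0061 without replicate 14. In the following, a gene is said to be called where its adjusted p is under 0.05, and each p measures the spread between these mice. Calls without replicate 14 omit the spread that this library adds within cKO;S/+.

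**Figure D1:**
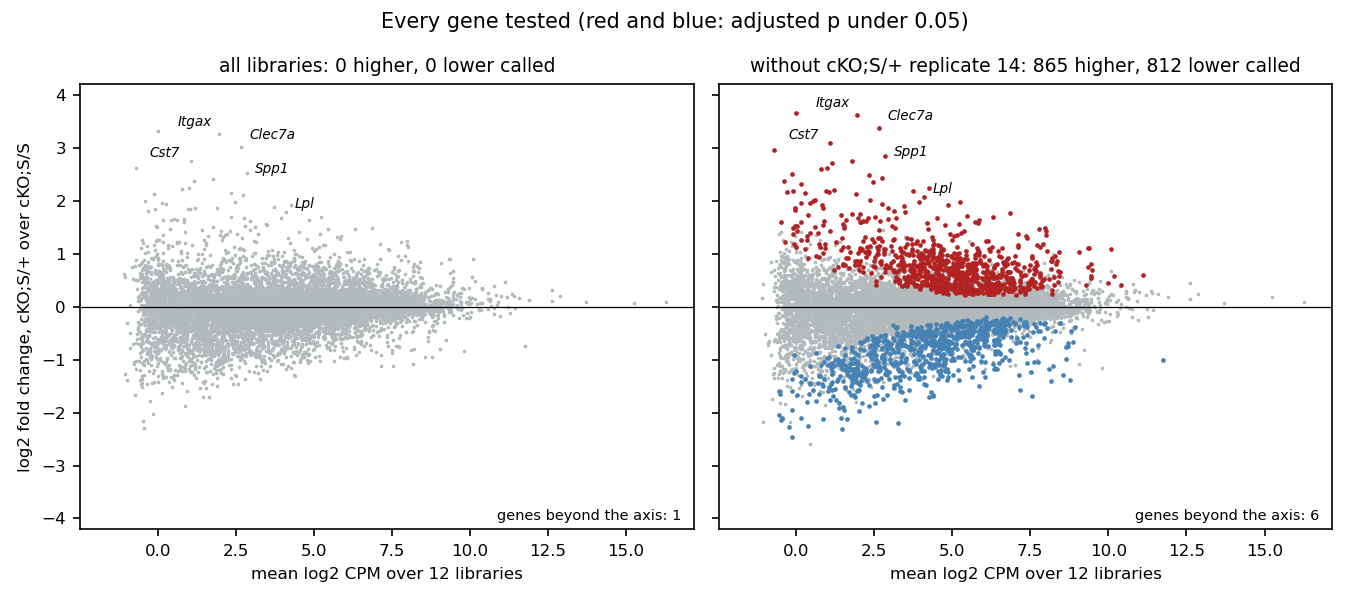
Log2 fold change of cKO;S/+ over cKO;S/S against mean log2 CPM for each of 15089 genes, with all libraries (left) and without the library labelled cKO;S/+ replicate 14 (right); red and blue points have an adjusted p under 0.05 in edgeR's quasi-likelihood test. No point is coloured on the left, where 0 genes were called, and on the right 865 are red and 812 blue, with Itgax, Clec7a, Spp1, Cst7 and Lpl at the upper edge of both panels.

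Genes of the disease-associated programme of microglia were among those with the smallest p in the comparison, and all 5 described first were higher in cKO;S/+. Itgax (Entrez 16411, chromosome 7, 128129526 to 128150657), which encodes integrin alpha X (CD11c), had 23.3, 25.2, 30.2 and 2.87 CPM in cKO;S/+, against 1.68, 2.12, 2.72 and 2.0 CPM in cKO;S/S, and 1.38 to 2.29 CPM in ctrl-2. cKO;S/+ replicates 8, 9 and 10 stood far above every other library, and replicate 14 lay just above the highest cKO;S/S library. The fold over cKO;S/S was 9.59 with all libraries (a log2 fold change of 3.26, SE 0.53, unadjusted p = 3.57e-05) and 12.3 without replicate 14 (a log2 fold change of 3.62, adjusted p = 2.01e-06). Clec7a (Entrez 56644, chromosome 6, 129461591 to 129472785), which encodes the beta-glucan receptor dectin-1, had 45.2, 28, 33.3 and 4.14 CPM in cKO;S/+, against 1.92, 3.16, 5.91 and 2.76 CPM in cKO;S/S. Its replicate 14 fell inside the cKO;S/S range (a log2 fold change of 3.01, SE 0.55, unadjusted p = 0.000118), and the log2 fold change was 3.37 without replicate 14 (adjusted p = 0.000135). Cst7, which encodes cystatin F, an inhibitor of lysosomal cysteine proteases, had 9.38, 13.7, 11.5 and 1.77 CPM in cKO;S/+, against 0.841, 1.55, 1.6 and 1.41 CPM in cKO;S/S (a log2 fold change of 2.76, SE 0.50, unadjusted p = 9.69e-05). Spp1 (Entrez 20750, chromosome 5, 104435111 to 104441053), the gene of the secreted phosphoprotein osteopontin, had 23.5, 36.1, 29.2 and 6.4 CPM in cKO;S/+, against 4.49, 2.53, 4.0 and 5.46 CPM in cKO;S/S (a log2 fold change of 2.53, SE 0.42, unadjusted p = 5.19e-05). Both genes separated the genotypes completely even with replicate 14, and without it their log2 fold changes were 3.1 and 2.84 (adjusted p = 0.000135 and 0.000135). Lpl, which encodes lipoprotein lipase, had 47.6, 46.9, 64.2 and 15.4 CPM in cKO;S/+, against 13.4, 13.9, 12.1 and 10.9 CPM in cKO;S/S, and its difference on the log2 scale was 1.79 with all libraries and 2.07 without replicate 14 (adjusted p = 9.67e-05).

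The 300 bases around the start sites of 5 genes that recur in the results are shown because they hold, within a short distance of the start, the letters of binding motifs of the AP-1, NF-kappaB and interferon response factors whose own genes are described further on. They are RefSeq sequences of GRCm38.p6, 250 bases before the start and 50 after it, read 5′ to 3′ on the strand of the gene, with each motif match in capitals. The motifs searched on both strands were TGANTCA for AP-1, GGGA and TTCC with 2 free letters between them for NF-kappaB, and GAAA and GAAA with 2 free letters between them for the interferon-stimulated response element (ISRE). Itgax (chr7:128129300-128129599, plus strand) holds 1 AP-1 match, Csf1 (chr3:107760420-107760719, minus strand) 1 NF-kappaB match, Cxcl10 (chr5:92348840-92349139, minus strand) 1 match of each in the order ISRE, NF-kappaB and AP-1, Isg15 (chr4:156200769-156201068, minus strand) 3 overlapping ISRE matches, and B2m (chr2:122147437-122147736, plus strand) 1 ISRE and 1 NF-kappaB match.
Itgax: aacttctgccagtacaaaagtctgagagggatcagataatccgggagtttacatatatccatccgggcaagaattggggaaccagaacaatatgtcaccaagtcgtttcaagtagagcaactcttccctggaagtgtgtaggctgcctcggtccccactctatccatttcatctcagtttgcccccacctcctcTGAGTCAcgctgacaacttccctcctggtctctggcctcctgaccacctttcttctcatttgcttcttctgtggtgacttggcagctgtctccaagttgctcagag
Csf1: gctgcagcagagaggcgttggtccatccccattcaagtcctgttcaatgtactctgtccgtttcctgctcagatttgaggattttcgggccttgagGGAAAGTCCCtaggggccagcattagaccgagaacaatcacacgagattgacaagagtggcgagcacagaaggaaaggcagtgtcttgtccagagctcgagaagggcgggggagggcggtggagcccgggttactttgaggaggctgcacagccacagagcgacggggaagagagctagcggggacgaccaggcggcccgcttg
Cxcl10: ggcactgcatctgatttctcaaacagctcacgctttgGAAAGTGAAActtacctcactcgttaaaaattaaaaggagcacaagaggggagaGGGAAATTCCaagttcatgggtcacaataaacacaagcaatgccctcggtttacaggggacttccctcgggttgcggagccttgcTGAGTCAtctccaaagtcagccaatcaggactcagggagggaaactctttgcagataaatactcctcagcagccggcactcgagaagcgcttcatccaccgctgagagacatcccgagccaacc
Isg15: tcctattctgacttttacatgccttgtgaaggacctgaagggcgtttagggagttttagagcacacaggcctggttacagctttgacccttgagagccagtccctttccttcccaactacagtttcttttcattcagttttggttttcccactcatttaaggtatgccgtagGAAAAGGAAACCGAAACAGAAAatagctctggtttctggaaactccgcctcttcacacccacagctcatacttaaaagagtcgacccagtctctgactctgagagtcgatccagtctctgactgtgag
B2m: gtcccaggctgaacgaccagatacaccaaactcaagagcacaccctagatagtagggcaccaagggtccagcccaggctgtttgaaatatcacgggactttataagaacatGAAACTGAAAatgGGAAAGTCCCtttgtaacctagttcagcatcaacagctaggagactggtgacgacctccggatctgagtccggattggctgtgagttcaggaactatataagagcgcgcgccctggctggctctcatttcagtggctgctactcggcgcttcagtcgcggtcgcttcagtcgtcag
Of 14421 windows of this length, from 11297 of the 15089 genes, 5.17% held the AP-1 letters, 1.45% the NF-kappaB letters and 2.99% the ISRE letters. These letters were counted in 7 lists. The ISRE letters were in 11 of 25 windows of the interferon-stimulated genes (44%), 2 of 12 of the MHC class I list (16.7%), 2 of 13 of the chemokines (15.4%), 1 of 13 of the AP-1 genes (7.69%), 1 of 17 of the disease-associated microglia list (5.88%), 1 of 26 of the other immediate early genes (3.85%) and 0 of 17 of the NF-kappaB genes. The NF-kappaB letters were in 3 of 13 windows of chemokines (23.1%), 3 of 17 of the NF-kappaB genes themselves (17.6%), 3 of 25 of the interferon-stimulated genes (12%), 1 of 12 of the MHC class I list (8.33%), 1 of 17 of the disease-associated microglia list (5.88%), and in no window of the 13 of the AP-1 genes or the 26 of the other immediate early genes. The AP-1 letters were in 4 of 17 windows of the disease-associated microglia list and 4 of 17 of the NF-kappaB genes (23.5% each), 4 of 25 of the interferon-stimulated genes (16%), 2 of 13 of the chemokines (15.4%), 1 of 26 of the other immediate early genes (3.85%), and in no window of the 12 of the MHC class I list or the 13 of the AP-1 genes. A match is a description of the letters and does not show binding.

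Of the 16 disease-associated microglia genes listed, 15 were measured, and 12 of these were higher and 0 lower at an unadjusted p under 0.05, where 9.17% of all genes were higher. Without replicate 14, 12 were called higher and 0 lower (5.73% of all genes were called higher). Across the list the median log2 fold change was 0.71, and 0.82 without replicate 14. The summed level of the list was 8765 to 10031 CPM in cKO;S/+ replicates 8, 9 and 10 and 6407 CPM in replicate 14, against 5258 to 7659 CPM in cKO;S/S, and 6356 to 7865 CPM in ctrl-2. Csf1 (Entrez 12977, chromosome 3, 107741048 to 107760469), the gene of a growth factor on which microglia depend for survival, had 301, 319, 296 and 145 CPM in cKO;S/+, against 123, 92.4, 151 and 101 CPM in cKO;S/S (a log2 fold change of 1.18, SE 0.22, unadjusted p = 0.000127), and replicate 14 lay within the cKO;S/S range. The log2 fold change of Csf1 was 1.38 without replicate 14 (adjusted p = 0.000566). Ctsl, which encodes the lysosomal protease cathepsin L, had 421, 374, 452 and 262 CPM in cKO;S/+, against 244, 235, 295 and 239.6 CPM in cKO;S/S, with a log2 fold change of 0.57 (0.71 without replicate 14, adjusted p = 0.00515). The abundant lipid carriers of the list separated less. Apoe, which astrocytes themselves make in quantity, had 7142 to 8299.7 CPM in cKO;S/+ replicates 8, 9 and 10 and 5357 CPM in replicate 14, against 4274 to 6678 CPM in cKO;S/S (a log2 fold change of 0.32, SE 0.17, unadjusted p = 0.0823), and the log2 fold change was 0.44 without replicate 14 (adjusted p = 0.087). Fabp5 had 219.5 to 225 CPM in cKO;S/+ replicates 8, 9 and 10 and 207 CPM in replicate 14, against 199 to 268 CPM in cKO;S/S (a log2 fold change of -0.059, and -0.034 without replicate 14, adjusted p = 0.875).

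The leading genes of this programme also stood apart from the microglial markers of their own libraries. On the log2 scale and set against the mean of the 20 general microglia and macrophage markers of the same library, Itgax stood at -2.99, -2.51, -2.66 and -4.99 in cKO;S/+, against -5.68, -5.23, -5.33 and -5.07 in cKO;S/S. For Clec7a the same difference from the microglial mean was -2.03, -2.36, -2.52 and -4.48 in cKO;S/+, against -5.5, -4.68, -4.23 and -4.62 in cKO;S/S, and for Cst7 it was -4.29, -3.38, -4.05 and -5.66 in cKO;S/+, against -6.6, -5.66, -6.05 and -5.54 in cKO;S/S. In cKO;S/+ replicates 8, 9 and 10 these genes, and also Spp1 and Lpl, thus stood higher relative to the microglial mean than in any other library. The other measured members of the list did not: Gpnmb, Axl, Cd9, Ctsl, Lgals3, Apoe, Igf1, Csf1, Cd63 and Fabp5. With the mean of the general markers as a covariate, no gene was called over all libraries, and without replicate 14 there were 4 genes called higher and 0 lower: Itgax (log2 fold change 3.10, SE 0.28, adjusted p = 0.00321), Spp1 (3.36, SE 0.40, adjusted p = 0.0231), Lpl (1.55, SE 0.21, adjusted p = 0.0408) and the complement gene C4b (1.69, SE 0.23, adjusted p = 0.0408). In that fit the median of the disease-associated list was 1.0, with 3 of 15 called, and that of the homeostatic list -0.24, with 0 called.

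**Figure D2:**
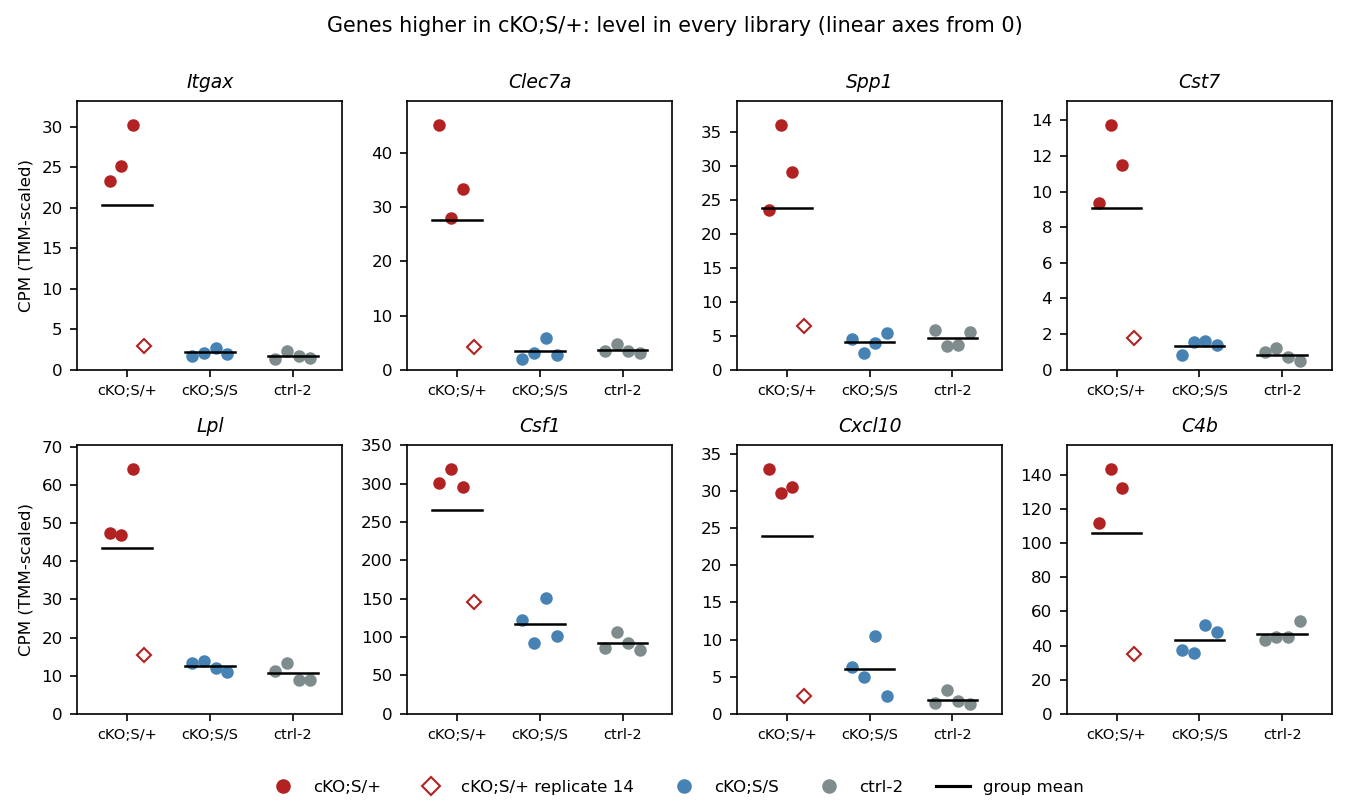
Level of 8 genes in CPM in every library of cKO;S/+, cKO;S/S and ctrl-2, with linear axes from 0; each point is 1 mouse, the open diamond is cKO;S/+ replicate 14 and the line is the group mean. The 3 filled cKO;S/+ points of Itgax sit between 23.3 and 30.2 CPM and the open diamond at 2.87 CPM, against 1.68 to 2.72 CPM in cKO;S/S.

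Microglial transcripts as a whole were higher in cKO;S/+. Of 20 general microglia and macrophage markers, 19 were higher and 0 lower at an unadjusted p under 0.05 (9.17% of all genes were higher), and without replicate 14 the number called was 19 higher and 0 lower (5.73% of all genes were called higher). Across the list the median log2 fold change was 0.77, and 0.95 without replicate 14. The summed level was 4561 to 6079.7 CPM in cKO;S/+ replicates 8, 9 and 10 and 2945 CPM in replicate 14, against 2228 to 3659 CPM in cKO;S/S, and 1593 to 3221 CPM in ctrl-2. Replicate 14 and cKO;S/S overlapped with ctrl-2, and cKO;S/+ replicates 8, 9 and 10 lay above all of them. Tyrobp, which encodes the adaptor DAP12 of TREM2, had 113, 92, 116 and 55.4 CPM in cKO;S/+, against 51.7, 46.4, 58.1 and 41.1 CPM in cKO;S/S (a log2 fold change of 0.93, SE 0.23, unadjusted p = 0.00156), and the log2 fold change was 1.12 without replicate 14 (adjusted p = 0.0067). Trem2, the lipid-sensing receptor itself, had 83.1 to 114 CPM in cKO;S/+ replicates 8, 9 and 10 and 49.3 CPM in replicate 14, against 33.3 to 60.9 CPM in cKO;S/S, a log2 fold change of 0.99 and 1.19 without replicate 14 (adjusted p = 0.0103). C1qa, which encodes a chain of complement C1q, had 410 to 557 CPM in cKO;S/+ replicates 8, 9 and 10 and 252 CPM in replicate 14, against 201 to 295 CPM in cKO;S/S, with a log2 fold change of 0.86, and 1.05 without replicate 14 (adjusted p = 0.0109). Irf8, a transcription factor of the myeloid lineage, had 117 to 159 CPM in cKO;S/+ replicates 8, 9 and 10 and 64.5 CPM in replicate 14, against 47.4 to 75.2 CPM in cKO;S/S, with a log2 fold change of 1.03, and 1.24 without replicate 14 (adjusted p = 0.00802). In RNA of a sorted fraction, fewer cells of a type and less RNA per cell cannot be told apart. The pathway lists of immune genes that follow had positive medians, as these markers did, whereas the border-associated macrophage list had a negative one. Fits with these markers as a covariate are given beside most immune lists and the cholesterol synthesis list, and for named genes of several other lists. Over all libraries, the log2 fold changes of Cxcl10, Tnfaip3, Atf3, Junb and Hk2, which are described in what follows, turned negative with that covariate.

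Homeostatic microglia genes mark surveying cells. Of 13 measured, 9 were higher and 0 lower (9.17% of all genes were higher), the median log2 fold change was 0.53, and 0.60 without replicate 14, and 5 were called higher without that library (5.73% of all genes). Olfml3 had 312, 281, 373 and 240.2 CPM in cKO;S/+, against 198, 184, 189 and 176 CPM in cKO;S/S and separated the genotypes completely (a log2 fold change of 0.69, SE 0.19, unadjusted p = 0.00286), and the log2 fold change was 0.79 without replicate 14 (adjusted p = 0.0232). Cx3cr1, the fractalkine receptor, had 808 to 1162 CPM in cKO;S/+ replicates 8, 9 and 10 and 686 CPM in replicate 14, against 520.4 to 692 CPM in cKO;S/S (a log2 fold change of 0.64, and 0.76 without replicate 14, adjusted p = 0.0492). Csf1r, the receptor of CSF1, had a log2 fold change of 0.56, and 0.68 without replicate 14 (adjusted p = 0.0606), so the call was not reached in either fit. Cx3cr1 and Csf1r turned to the opposite sign with the microglia covariate.

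Most genes of macrophages of the brain's borders had lower values in cKO;S/+. Of 9 measured border-associated macrophage genes, 5 were lower (9.11% of all genes were) and 1 higher at an unadjusted p under 0.05, the median log2 fold change was -0.92, and -1.15 without replicate 14, and 3 were called lower without it (5.38% of all genes). Lyve1, a hyaluronan receptor, had 1.9, 1.26, 2.86 and 5.63 CPM in cKO;S/+, against 10.5, 4.88, 7.4 and 6.75 CPM in cKO;S/S (a log2 fold change of -1.35, SE 0.43, unadjusted p = 0.00857), and the log2 fold change was -1.87 without replicate 14 (adjusted p = 0.0161). Cd163, the haemoglobin scavenger receptor, had 6.94, 2.86, 4.19 and 7.73 CPM in cKO;S/+, against 16.2, 10.2, 12.7 and 12.7 CPM in cKO;S/S, so that the genotypes did not overlap (a log2 fold change of -1.25, SE 0.40, unadjusted p = 0.00798), and the log2 fold change was -1.47 without replicate 14 (adjusted p = 0.0483). Pf4, which encodes platelet factor 4 (CXCL4), had 1.71 to 3.08 CPM in cKO;S/+ replicates 8, 9 and 10 and 2.32 CPM in replicate 14, against 4.17 to 6.82 CPM in cKO;S/S, with a log2 fold change of -1.19, and -1.2 without replicate 14 (adjusted p = 0.0678), and Cbr2 had a log2 fold change of -1.02, and -1.2 without replicate 14 (adjusted p = 0.0494). The exception was Stab1, a scavenger receptor that microglia also express, with a log2 fold change of 0.26 (unadjusted p = 0.0302), and the log2 fold change was 0.32 without replicate 14 (adjusted p = 0.0849). Mrc1, the mannose receptor, had 32 to 69.7 CPM in cKO;S/+ replicates 8, 9 and 10 and 64.5 CPM in replicate 14, against 52.1 to 85.4 CPM in cKO;S/S (unadjusted p = 0.308, and adjusted p = 0.485 without replicate 14). The summed level of the list was 269 to 349.8 CPM in cKO;S/+ replicates 8, 9 and 10 and 328 CPM in replicate 14, against 291 to 397 CPM in cKO;S/S, and 275 to 445 CPM in ctrl-2. Markers of neutrophils and lymphocytes were measured in 2 of 12 cases, at a summed 0.63 to 2.2 CPM in cKO;S/+ replicates 8, 9 and 10 and 1.82 CPM in replicate 14, against 0.939 to 3.08 CPM in cKO;S/S, and S100a9 was at 0 in 1 mutant library, so their RNA was near the floor of detection.

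**Figure D3:**
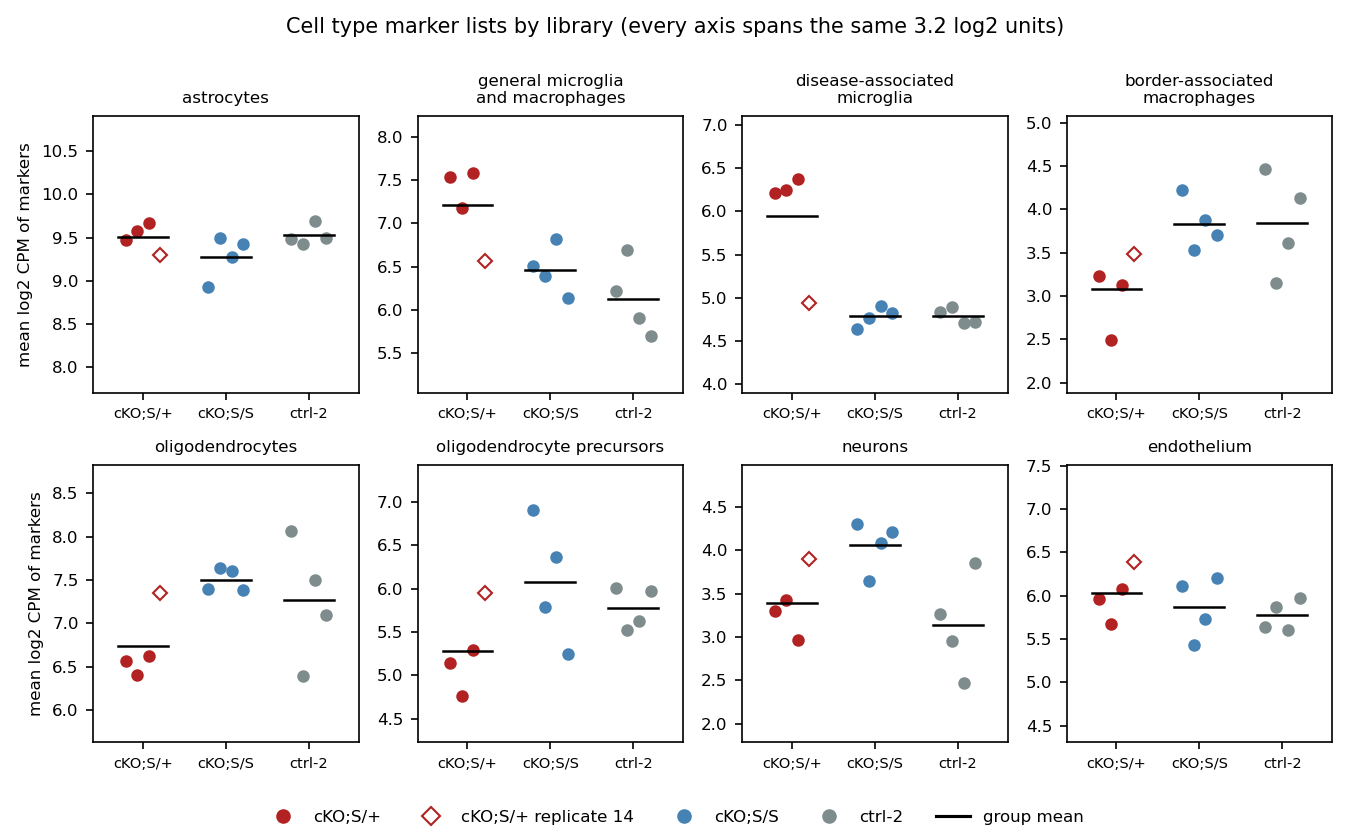
Mean log2 CPM of 8 cell type marker lists in each library of cKO;S/+, cKO;S/S and ctrl-2, every axis spanning the same 3.2 log2 units; the open diamond is cKO;S/+ replicate 14 and the line is the group mean. For general microglia and disease-associated microglia the 3 filled cKO;S/+ points lie above all other libraries, for oligodendrocytes they lie below all cKO;S/S points, and the astrocyte list overlaps between the genotypes.

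Chemokine genes, whose products attract leukocytes and microglia, showed the largest median difference of the 43 lists. Of 16 measured, 9 were higher and 1 lower (9.17% and 9.11% of all genes), the median log2 fold change was 1.29, and 1.55 without replicate 14, and 9 were called higher and 0 lower without that library (5.73% and 5.38% of all genes). Ccl3 had 204, 207, 282 and 87.5 CPM in cKO;S/+, against 76.9, 51.6, 98.9 and 55.9 CPM in cKO;S/S (a log2 fold change of 1.46, SE 0.34, unadjusted p = 0.000822), and the log2 fold change was 1.7 without replicate 14 (adjusted p = 0.00525). Its neighbour Ccl4 had 109 to 147 CPM in cKO;S/+ replicates 8, 9 and 10 and 47.4 CPM in replicate 14, against 28.8 to 62.2 CPM in cKO;S/S (a log2 fold change of 1.46, and 1.71 without replicate 14, adjusted p = 0.00762). Both encode inflammatory chemokines that microglia make, and both also respond to tissue dissociation. Ccl6 had 49.8, 44.8, 59.7 and 12.6 CPM in cKO;S/+, against 12.7, 12.3, 18.3 and 8.92 CPM in cKO;S/S (a log2 fold change of 1.68, SE 0.38, unadjusted p = 0.000755), and the log2 fold change was 1.98 without replicate 14 (adjusted p = 0.00125). Ccrl2, an atypical chemokine receptor gene, had 71.2, 102, 112 and 49.3 CPM in cKO;S/+, against 26.4, 34.5, 36.8 and 30.7 CPM in cKO;S/S, with no overlap of the genotypes (a log2 fold change of 1.38, SE 0.29, unadjusted p = 0.000338), and the log2 fold change was 1.57 without replicate 14 (adjusted p = 0.00589). Cxcl10, an interferon-induced chemokine gene, had 32.9, 29.7, 30.6 and 2.37 CPM in cKO;S/+, against 6.36, 4.94, 10.5 and 2.41 CPM in cKO;S/S and 1.26 to 3.15 CPM in ctrl-2. Here replicate 14 and cKO;S/S replicate 18 were nearly equal, and the difference on the log2 scale was 1.98 with all libraries and 2.35 without replicate 14 (adjusted p = 0.00381). The median of the list with the microglia covariate was 0.17, and 0.56 without replicate 14, with 0 genes called.

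Among 24 measured genes of cytokines and their receptors, 17 were higher and 0 lower (9.17% of all genes were higher), and 15 were called higher without replicate 14, as were 5.73% of all genes (the median log2 fold change was 0.52, and 0.67 without replicate 14). The median was 0.17 with the microglia covariate and without replicate 14, with 0 called. Il12b, which encodes the p40 subunit of interleukins 12 and 23, had 10.7, 8.18, 5.81 and 1.32 CPM in cKO;S/+, against 0.701, 0.287, 1.44 and 0.117 CPM in cKO;S/S (a log2 fold change of 3.32, SE 0.63, unadjusted p = 0.000163). It had the largest log2 fold change of the list, from low counts, and 3.65 without replicate 14 (adjusted p = 0.00201). Il1b, the gene of interleukin 1 beta, had 85.4, 57.5, 66.6 and 15.3 CPM in cKO;S/+, against 15.3, 8.78, 22.6 and 12.5 CPM in cKO;S/S (a log2 fold change of 1.92, SE 0.44, unadjusted p = 0.000825). The Il1b values of replicate 14 and of cKO;S/S overlapped, and the log2 fold change was 2.24 without replicate 14 (adjusted p = 0.00264). Il15, whose product sustains natural killer and memory T cells, had 4.84, 3.49, 4.81 and 3.97 CPM in cKO;S/+, against 2.8, 3.44, 1.92 and 1.94 CPM in cKO;S/S and did not overlap (a log2 fold change of 0.76, SE 0.21, unadjusted p = 0.00352), and the log2 fold change was 0.79 without replicate 14 (adjusted p = 0.0472). Il1r1, the receptor of interleukin 1, had 9.57 to 11.3 CPM in cKO;S/+ replicates 8, 9 and 10 and 10.2 CPM in replicate 14, against 6.6 to 9.63 CPM in cKO;S/S (a log2 fold change of 0.48, and 0.49 without replicate 14, adjusted p = 0.0606).

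Receptors of microbial and damage products were higher as well. Of 18 toll-like receptor and adaptor genes, 13 were higher and 1 lower (9.17% and 9.11% of all genes), the median log2 fold change was 0.54, and 0.65 without replicate 14, and 11 were called higher without it (5.73% of all genes). Tlr2, a receptor of bacterial lipoproteins, had 69.9, 58.5, 64.4 and 20.4 CPM in cKO;S/+, against 21.4, 20.2, 24.5 and 14.4 CPM in cKO;S/S (a log2 fold change of 1.4, SE 0.31, unadjusted p = 0.00061), and the log2 fold change was 1.67 without replicate 14 (adjusted p = 0.000811), and its partner Tlr1 had 11 to 12.7 CPM in cKO;S/+ replicates 8, 9 and 10 and 4.36 CPM in replicate 14, against 2.29 to 4.63 CPM in cKO;S/S (a log2 fold change of 1.43, and 1.68 without replicate 14, adjusted p = 0.00285). Tlr7, which recognises single-stranded RNA in endosomes, had 77.1, 64.8, 90.2 and 56.3 CPM in cKO;S/+, against 42.3, 42.9, 53.8 and 34.7 CPM in cKO;S/S and separated the genotypes (a log2 fold change of 0.73, SE 0.18, unadjusted p = 0.00148), and the log2 fold change was 0.83 without replicate 14 (adjusted p = 0.0156). Ticam2, which encodes the TLR4 adaptor TRAM, had 12.7, 9.44, 12.6 and 8.11 CPM in cKO;S/+, against 5.47, 5.97, 6.18 and 5.58 CPM in cKO;S/S, again without overlap (a log2 fold change of 0.89, SE 0.17, unadjusted p = 0.000195), and the log2 fold change was 1.0 without replicate 14 (adjusted p = 0.00582). The toll-like receptor list had a median of 0.16 with the microglia covariate and without replicate 14, with 0 called. Ly96, the TLR4 co-receptor MD-2, had a log2 fold change of 0.87, and 0.95 without replicate 14 (adjusted p = 0.0226). Of 16 NF-kappaB subunit and inhibitor genes, 11 were higher and 0 lower, and 12 were called higher without replicate 14 (the median log2 fold change was 0.55, and 0.73 without replicate 14). Nfkbia, which encodes the inhibitor I kappa B alpha and is itself induced by NF-kappaB, had 636, 472, 564 and 231 CPM in cKO;S/+, against 249, 225, 345 and 161 CPM in cKO;S/S (a log2 fold change of 0.96, and 1.19 without replicate 14, adjusted p = 0.0118). Tnfaip3, the ubiquitin-editing inhibitor A20, had 886, 630.4, 737 and 244 CPM in cKO;S/+, against 306, 227, 432 and 148 CPM in cKO;S/S and 89.1 to 191 CPM in ctrl-2, so that 3 of the 4 cKO;S/S libraries also lay above every control library (a log2 fold change of 1.17 between the mutants, and 1.43 without replicate 14, adjusted p = 0.0195). Nfkb1, the p105 and p50 subunit gene, had a log2 fold change of 0.36, and 0.44 without replicate 14 (adjusted p = 0.0244). The NF-kappaB list with the microglia covariate had a median of 0.18 without replicate 14 and 0 called genes.

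Interferon-stimulated genes leaned one way. All 24 measured members had a positive log2 fold change, 19 at an unadjusted p under 0.05 (9.17% of all genes were higher), the median log2 fold change was 0.97, and 1.22 without replicate 14, and 20 were called higher without that library (5.73% of all genes). Mx1, which encodes an antiviral GTPase, had 6.94, 6.3, 13.3 and 0.883 CPM in cKO;S/+, against 1.21, 1.38, 2.56 and 0.587 CPM in cKO;S/S (a log2 fold change of 2.25, SE 0.61, unadjusted p = 0.00282), and the log2 fold change was 2.61 without replicate 14 (adjusted p = 0.00476). Isg15, a ubiquitin-like modifier, had 6.98, 4.18, 9.28 and 1.1 CPM in cKO;S/+, against 1.45, 1.03, 2.24 and 1.29 CPM in cKO;S/S (a log2 fold change of 1.84, SE 0.52, unadjusted p = 0.00356), and the log2 fold change was 2.18 without replicate 14 (adjusted p = 0.00592). In both, cKO;S/+ replicate 10 had the highest value and replicate 14 lay within the cKO;S/S range. Bst2, the antiviral membrane protein tetherin, had 9.38, 9.44, 13.5 and 4.25 CPM in cKO;S/+, against 4.11, 3.22, 3.89 and 2.76 CPM in cKO;S/S and did not overlap (a log2 fold change of 1.38, SE 0.32, unadjusted p = 0.000791), and the log2 fold change was 1.62 without replicate 14 (adjusted p = 0.00431). With the microglia covariate the median of the list was 0.15 over all libraries and 0.68 without replicate 14, where 8 of 24 were at an unadjusted p under 0.05 and 0 called. Of all 15089 genes, 503 were higher and 832 lower at that p in the fit without replicate 14.

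Genes of antigen presentation were higher as well. All 13 MHC class I and immunoproteasome genes had positive log2 fold changes, 12 of them at an unadjusted p under 0.05 (9.17% of all genes were higher), and 13 of 13 were called higher without replicate 14, as were 5.73% of all genes (the median log2 fold change was 0.90, and 1.09 without replicate 14). B2m, the light chain of class I molecules, had 392, 342, 471 and 193 CPM in cKO;S/+, against 174, 169, 222 and 153 CPM in cKO;S/S (a log2 fold change of 0.96, SE 0.24, unadjusted p = 0.00162), and the log2 fold change was 1.16 without replicate 14 (adjusted p = 0.00547). H2-D1, a class I heavy chain whose reads may be shared with near-identical H2 genes, had 25.6 to 36.5 CPM in cKO;S/+ replicates 8, 9 and 10 and 15 CPM in replicate 14, against 9.51 to 18.2 CPM in cKO;S/S (a log2 fold change of 0.95, and 1.16 without replicate 14, adjusted p = 0.00799). Tap1, a subunit of the peptide transporter, had a log2 fold change of 0.90, and 1.09 without replicate 14 (adjusted p = 0.00755). Of 7 measured class II genes, 4 were higher and 0 lower, and 4 were called higher (the median log2 fold change was 0.75, and 0.94 without replicate 14), against a median of 0.59 with the microglia covariate and without replicate 14. Cd74, the invariant chain, had 42.4, 33.8, 42.4 and 16.3 CPM in cKO;S/+, against 14.7, 20.4, 22.7 and 13.1 CPM in cKO;S/S (a log2 fold change of 0.93, SE 0.28, unadjusted p = 0.00509), and the log2 fold change was 1.16 without replicate 14 (adjusted p = 0.00746). The class I list had, with the microglia covariate and without replicate 14, a median of 0.35, with 1 of 13 at an unadjusted p under 0.05. In that fit 503 of all 15089 genes were higher and 832 lower at that p.

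Complement and lysosomal genes were higher too. Of 21 measured complement genes, 13 were higher and 1 lower (9.17% and 9.11% of all genes), and 10 were called higher without replicate 14, as were 5.73% of all genes (the median log2 fold change was 0.56, and 0.72 without replicate 14). The median was 0.33 with the microglia covariate and without replicate 14. C4b (Entrez 12268, chromosome 17, 34728139 to 34743902), which encodes complement component 4 and is expressed by astrocytes, had 112, 143, 132 and 35.3 CPM in cKO;S/+, against 37.3, 35.7, 52.2 and 47.9 CPM in cKO;S/S (a log2 fold change of 1.29, SE 0.32, unadjusted p = 0.00131). Replicate 14 had the lowest cKO;S/+ value, below every cKO;S/S library, and without it the log2 fold change was 1.58 (adjusted p = 0.000135). C4b reads may be shared with the near-identical Slp gene. C3ar1, the receptor of the C3a fragment, had 76.2 to 98.4 CPM in cKO;S/+ replicates 8, 9 and 10 and 35.4 CPM in replicate 14, against 23.3 to 48.3 CPM in cKO;S/S (a log2 fold change of 1.17, and 1.4 without replicate 14, adjusted p = 0.00695). Of 22 lysosomal genes, 17 were higher and 0 lower, the median log2 fold change was 0.58, and 0.70 without replicate 14, and 17 were called higher without it. Ctsd, the protease cathepsin D, had 2043, 1770.1, 2158 and 1013 CPM in cKO;S/+, against 871, 963, 1103 and 820.1 CPM in cKO;S/S (a log2 fold change of 0.89, SE 0.21, unadjusted p = 0.000958), and the log2 fold change was 1.08 without replicate 14 (adjusted p = 0.00271). Ctsb, cathepsin B, had 1235, 1061, 1278 and 577 CPM in cKO;S/+, against 528, 537, 633 and 521 CPM in cKO;S/S (a log2 fold change of 0.90, and 1.1 without replicate 14, adjusted p = 0.000512). Hexa and Gusb, glycosidase genes, had log2 fold changes of 0.73 and 0.58, and 0.90 and 0.69 without replicate 14 (adjusted p = 0.00271 and 0.00515). With the microglia covariate and without replicate 14 the lysosomal median was 0.23, with 10 of 22 at an unadjusted p under 0.05. In that fit 503 of all 15089 genes were higher and 832 lower at that p.

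Beyond these lists, the genes with the smallest p among those whose genotypes did not overlap included several that belong to none of them. Glipr1, a glycoprotein gene of the CAP family, had 3.22, 2.92, 2.95 and 1.44 CPM in cKO;S/+, against 0.888, 0.689, 0.533 and 0.587 CPM in cKO;S/S (a log2 fold change of 1.95, SE 0.32, unadjusted p = 3.75e-05), and the log2 fold change was 2.15 without replicate 14 (adjusted p = 0.00201). Ptgs2, which encodes cyclooxygenase 2, the inducible enzyme of prostaglandin synthesis, had 13.3, 17.5, 17 and 7.62 CPM in cKO;S/+, against 5.89, 3.62, 5.54 and 5.16 CPM in cKO;S/S (a log2 fold change of 1.45, SE 0.24, unadjusted p = 4.62e-05), and the log2 fold change was 1.65 without replicate 14 (adjusted p = 0.000699). Its cKO;S/S values overlapped with those of ctrl-2 (5.68 to 8.25 CPM in ctrl-2). Galns, a lysosomal sulfatase gene, had 12.1, 10.5, 13.2 and 6.62 CPM in cKO;S/+, against 5.37, 4.65, 4.85 and 5.4 CPM in cKO;S/S (a log2 fold change of 1.07, SE 0.19, unadjusted p = 8.34e-05), and the log2 fold change was 1.24 without replicate 14 (adjusted p = 0.000823). Slc7a7, a subunit of a transporter of cationic amino acids, had 23.9, 27.3, 28.7 and 16.9 CPM in cKO;S/+, against 13.6, 13.6, 13.5 and 13.1 CPM in cKO;S/S, where the cKO;S/S libraries were all within 1 CPM (a log2 fold change of 0.85, SE 0.17, unadjusted p = 0.000216), and the log2 fold change was 0.99 without replicate 14 (adjusted p = 0.00271). Arid5b, a DNA-binding protein gene, had 46.5, 45.8, 46.2 and 43.8 CPM in cKO;S/+, against 35.2, 36.2, 39.6 and 36.1 CPM in cKO;S/S (a log2 fold change of 0.31, SE 0.059, unadjusted p = 0.000168), and the log2 fold change was 0.33 without replicate 14 (adjusted p = 0.0117). Clec2d, a C-type lectin gene, had a log2 fold change of 0.59, and 0.65 without replicate 14 (adjusted p = 0.00746). Lyz2, the lysozyme of myeloid cells, had 78.8, 67.5, 84.8 and 20 CPM in cKO;S/+, against 20.7, 21.1, 21 and 18.1 CPM in cKO;S/S, with replicate 14 inside the cKO;S/S range (a log2 fold change of 1.63, and 1.93 without replicate 14, adjusted p = 0.000135). Over all libraries with the microglia covariate, log2 fold changes were 1.27 for Glipr1, 1.19 for Ptgs2, 0.63 for Galns and 0.43 for Slc7a7. They were 0.26 for Arid5b, 0.52 for Clec2d and 0.73 for Lyz2.

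Genes that respond within minutes to stimulation, and also to the handling of tissue, were partly higher. Of 12 measured AP-1 transcription factor genes, 5 were higher and 0 lower (9.17% and 9.11% of all genes), the median log2 fold change was 0.48, and 0.62 without replicate 14, and 3 were called higher without it (5.73% of all genes). Atf3, a stress-induced factor, had 762, 492, 708 and 330.2 CPM in cKO;S/+, against 324, 286, 505 and 196 CPM in cKO;S/S, and 119 to 247 CPM in ctrl-2. Here 3 of the 4 cKO;S/S libraries lay above every control library (a log2 fold change of 0.81 between the mutants, and 1.0 without replicate 14, adjusted p = 0.0524). Junb had 405 to 641 CPM in cKO;S/+ replicates 8, 9 and 10 and 287 CPM in replicate 14, against 219.9 to 423 CPM in cKO;S/S (a log2 fold change of 0.68, and 0.86 without replicate 14, adjusted p = 0.0457). The median of the AP-1 list with the microglia covariate was -0.064, and -0.067 without replicate 14. Of 23 other immediate early genes, 12 were higher and 1 lower, and 9 were called higher and 1 lower (the median log2 fold change was 0.46, and 0.58 without replicate 14). Gadd45b, a stress-response gene, had 83.4, 69.7, 73.8 and 26.1 CPM in cKO;S/+, against 32.1, 21.2, 41.4 and 22 CPM in cKO;S/S (a log2 fold change of 1.12, and 1.37 without replicate 14, adjusted p = 0.00496). The lower one was Arc, an activity-regulated gene of glutamatergic neurons, with 14.2, 10.8, 10.2 and 16.6 CPM in cKO;S/+, against 21.7, 15.7, 20.3 and 16.1 CPM in cKO;S/S (a log2 fold change of -0.52, SE 0.17, unadjusted p = 0.00892), and the log2 fold change was -0.66 without replicate 14 (adjusted p = 0.0247). The list medians of both groups against ctrl-2 were 1.24 for cKO;S/+ and 0.61 for cKO;S/S in the AP-1 list, and 1.08 and 0.57 in the other, comparisons that share the ctrl-2 libraries.

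Genes of cholesterol synthesis, an important product of astrocytes, were lower in cKO;S/+. Of 21 measured, 15 were lower and 0 higher at an unadjusted p under 0.05 (9.11% of all genes were lower), 20 had a negative log2 fold change, the median log2 fold change was -0.31, and -0.38 without replicate 14, and 10 were called lower without that library (5.38% of all genes). Lss, which encodes lanosterol synthase, had 51.3, 48, 60.6 and 67.1 CPM in cKO;S/+, against 75.6, 77.2, 81.1 and 78.8 CPM in cKO;S/S (a log2 fold change of -0.46, SE 0.12, unadjusted p = 0.00171), and the log2 fold change was -0.55 without replicate 14 (adjusted p = 0.0135). Acat2, the cytosolic thiolase at the start of the pathway, had 16, 14.3, 18.6 and 17.4 CPM in cKO;S/+, against 21.7, 21.1, 23.5 and 23.8 CPM in cKO;S/S (a log2 fold change of -0.44, SE 0.11, unadjusted p = 0.00128), and the log2 fold change was -0.47 without replicate 14 (adjusted p = 0.0278). Fdps, farnesyl diphosphate synthase, had 47.9, 39.5, 47.1 and 59.7 CPM in cKO;S/+, against 61.8, 72.1, 70.6 and 67 CPM in cKO;S/S (a log2 fold change of -0.48, SE 0.14, unadjusted p = 0.00405), and the log2 fold change was -0.60 without replicate 14 (adjusted p = 0.017). In all 3 the genotypes did not overlap, and replicate 14 was the highest or second highest of its group. Pmvk, phosphomevalonate kinase, had a log2 fold change of -0.31 and, alone among these 4, was not called without replicate 14 (adjusted p = 0.0688). Sqle, squalene epoxidase, had 99.1 to 126 CPM in cKO;S/+ replicates 8, 9 and 10 and 133 CPM in replicate 14, against 129 to 159.6 CPM in cKO;S/S (a log2 fold change of -0.30, and -0.38 without replicate 14, adjusted p = 0.0249). With the microglia covariate the median was -0.21 with 4 of 21 at an unadjusted p under 0.05, and without replicate 14 it was -0.37 with 10 and 0 called. In these fits, 234 and 832 of all 15089 genes were lower at that p, and 172 and 503 higher. In the libraries that express Xist alone, 6 were called lower, as were 393 of all 15084 genes. Oligodendrocytes make cholesterol as well, and their markers were lower too. Whether this bears on the cholesterol synthesis list was not tested. With the oligodendrocyte markers as a covariate, 2 of 21 were lower at an unadjusted p under 0.05 and the median was -0.16. In that fit 343 of all 15089 genes were lower at that p.

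Genes that export cholesterol and are targets of the liver X receptor (LXR) were partly higher, 6 of 12 with 0 lower, and 6 called higher without replicate 14 (the median log2 fold change was 0.26, and 0.33 without replicate 14). Of all genes, 9.17% were higher and 9.11% lower, and without replicate 14 the shares called were 5.73% and 5.38%. Abcg1 and Abca1 encode transporters that load lipoproteins with cholesterol. Abcg1 had 102, 95.7, 119.7 and 67 CPM in cKO;S/+, against 63.7, 48.3, 63.6 and 65.7 CPM in cKO;S/S (a log2 fold change of 0.67, SE 0.15, unadjusted p = 0.000616), and the log2 fold change was 0.81 without replicate 14 (adjusted p = 0.00271). Abca1 had 829, 795, 970.4 and 664 CPM in cKO;S/+, against 522, 599.7, 603 and 642 CPM in cKO;S/S (a log2 fold change of 0.46, SE 0.11, unadjusted p = 0.0014), and the log2 fold change was 0.55 without replicate 14 (adjusted p = 0.0102). Neither gene overlapped between the genotypes. Apoc1 had 8.47 to 11.8 CPM in cKO;S/+ replicates 8, 9 and 10 and 2.76 CPM in replicate 14, against 2.1 to 4.25 CPM in cKO;S/S (a log2 fold change of 1.32, and 1.61 without replicate 14, adjusted p = 0.00709), and Npc2, which moves cholesterol out of lysosomes, had a log2 fold change of 0.47, and 0.58 without replicate 14 (adjusted p = 0.0101). Regulators of SREBP and of LDL uptake were 1 higher and 1 lower of 11. The higher one was Mylip, an LXR target whose product degrades the LDL receptor (a log2 fold change of 0.73, and 0.88 without replicate 14, adjusted p = 0.016), and the lower one Stard4, a sterol carrier (a log2 fold change of -0.36, and -0.51 without replicate 14, adjusted p = 0.0138). Over all libraries with the microglia covariate, the log2 fold change was 0.33 for Abcg1, 0.26 for Abca1 and 0.46 for Apoc1. In the same fit it was 0.11 for Npc2, 0.092 for Mylip and -0.17 for Stard4. Of 14 genes of fatty acid synthesis and desaturation, 4 were lower and 0 higher, and 2 were called lower (the median log2 fold change was -0.093, and -0.13 without replicate 14). Elovl6, a fatty acid elongase, had 52.6, 57.9, 65.2 and 98.7 CPM in cKO;S/+, against 104, 116, 108 and 102 CPM in cKO;S/S (a log2 fold change of -0.65, SE 0.19, unadjusted p = 0.00439), and the log2 fold change was -0.88 without replicate 14 (adjusted p = 0.00695), while Fasn, fatty acid synthase, had 468 to 613 CPM in cKO;S/+ replicates 8, 9 and 10 and 550.2 CPM in replicate 14, against 546 to 672 CPM in cKO;S/S (unadjusted p = 0.127, and adjusted p = 0.38 without replicate 14). With the oligodendrocyte markers as a covariate over all libraries, the log2 fold change was -0.24 for Elovl6 and -0.018 for Fasn. Among 19 measured genes of fatty acid oxidation, 1 was higher and 0 lower in the fit without covariate. This is below the share of all genes, and the median was 0.043.

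**Figure D4:**
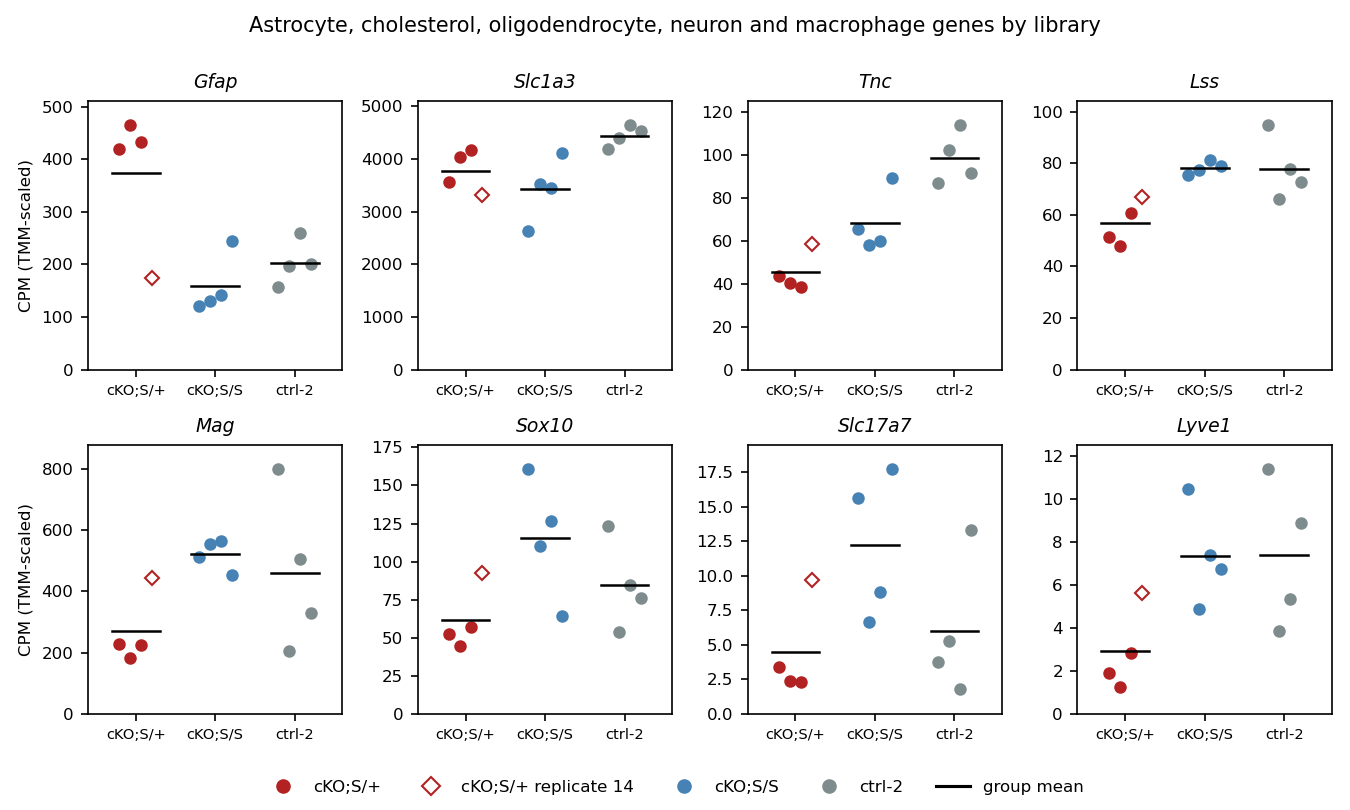
Level in CPM of Gfap, Slc1a3, Tnc, Lss, Mag, Sox10, Slc17a7 and Lyve1 in every library of cKO;S/+, cKO;S/S and ctrl-2, with linear axes from 0; the open diamond is cKO;S/+ replicate 14 and the line is the group mean. The 3 filled cKO;S/+ points of Gfap lie between 420.3 and 465 CPM, above all other libraries, and those of Lss and Lyve1 lie below every cKO;S/S point.

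Transcripts of the oligodendrocyte lineage were lower in cKO;S/+. Of 14 oligodendrocyte markers, 11 were lower and 0 higher (9.11% of all genes were lower), all 14 log2 fold changes were negative, the median log2 fold change was -0.77, and -1.04 without replicate 14, and 7 were called lower without that library (5.38% of all genes). The summed level was 3488 to 4269.9 CPM in cKO;S/+ replicates 8, 9 and 10 and 7215 CPM in replicate 14, against 7341 to 8782 CPM in cKO;S/S, and 3602 to 11878 CPM in ctrl-2. Mag, a myelin glycoprotein gene, had 229, 182, 225 and 445 CPM in cKO;S/+, against 513, 555, 567 and 452 CPM in cKO;S/S, and 207 to 799.7 CPM in ctrl-2. The mutant genotypes did not overlap for Mag (a log2 fold change of -0.95, SE 0.36, unadjusted p = 0.02), and the log2 fold change was -1.3 without replicate 14 (adjusted p = 0.0312), but ctrl-2 spanned both. Mobp had a log2 fold change of -0.95, and -1.38 without replicate 14 (adjusted p = 0.0187), and Mbp, with 375, 281, 366 and 641 CPM in cKO;S/+, against 785, 769, 804 and 527 CPM in cKO;S/S, was not called in either fit (adjusted p = 0.0827 without replicate 14). Opalin had a log2 fold change of -0.81, and -0.90 without replicate 14 (adjusted p = 0.0885), and Cnp had a log2 fold change of -0.62, and -0.82 without replicate 14 (adjusted p = 0.0582). Among 12 precursor markers, 10 were lower and 0 higher, and 7 were called lower (the median log2 fold change was -0.88, and -1.17 without replicate 14). Sox10, the transcription factor of the lineage, had 52.7, 44.3, 56.8 and 92.2 CPM in cKO;S/+, against 161, 110.3, 127 and 64.1 CPM in cKO;S/S (a log2 fold change of -0.91, and -1.17 without replicate 14, adjusted p = 0.0271). Olig1 had 103 to 120.5 CPM in cKO;S/+ replicates 8, 9 and 10 and 178 CPM in replicate 14, against 153 to 241 CPM in cKO;S/S (a log2 fold change of -0.58, and -0.79 without replicate 14, adjusted p = 0.0108), Cspg4, which encodes NG2, had a log2 fold change of -0.85, and -1.18 without replicate 14 (adjusted p = 0.0164), and Gpr17 had log2 fold changes of -1.08 with all libraries and -1.4 without replicate 14 (adjusted p = 0.04997). In the libraries that express Xist alone, 13 of 14 oligodendrocyte and 8 of 12 precursor markers were called lower. In that fit 393 of all 15084 genes were called lower.

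Between the mutants, neuronal transcripts had lower values in cKO;S/+. Of 16 measured, 7 were lower and 0 higher (9.11% of all genes were lower), the median log2 fold change was -0.65, and -0.85 without replicate 14, and 4 were called lower without it (5.38% of all genes). Slc17a7, the vesicular glutamate transporter of cortical neurons, had 3.37, 2.4, 2.33 and 9.72 CPM in cKO;S/+, against 15.7, 6.66, 8.84 and 17.7 CPM in cKO;S/S (a log2 fold change of -1.46, SE 0.59, unadjusted p = 0.027), and the log2 fold change was -2.17 without replicate 14 (adjusted p = 0.0315). Neurod2, a transcription factor of the same neurons, had 1.17, 0.572, 0.714 and 2.1 CPM in cKO;S/+, against 2.99, 1.78, 2.4 and 3.17 CPM in cKO;S/S (a log2 fold change of -1.18, and -1.64 without replicate 14, adjusted p = 0.0109). Grin1, an NMDA receptor subunit gene, had a log2 fold change of -1.12, and -1.47 without replicate 14 (adjusted p = 0.0295), and Snap25, with 18.4 to 31.5 CPM in cKO;S/+ replicates 8, 9 and 10 and 28.2 CPM in replicate 14, against 29.6 to 46 CPM in cKO;S/S, was not called (a log2 fold change of -0.71, and -0.78 without replicate 14, adjusted p = 0.156). The summed level of the list was 438 to 534 CPM in cKO;S/+ replicates 8, 9 and 10 and 588 CPM in replicate 14, against 553 to 707 CPM in cKO;S/S, and 450.3 to 636 CPM in ctrl-2. Set against ctrl-2, the list median was 0.020 for cKO;S/+ (2 called higher and 0 lower) and 0.87 for cKO;S/S (0 called). By this median the neuronal list of cKO;S/+ was thus lower than that of cKO;S/S but not lower than that of ctrl-2. Nmnat2, itself a neuronal transcript, was read in the same libraries, and how much of its signal came from neurons was not tested. Of 13 genes of mural cells and fibroblasts, 3 were lower and 0 higher (9.11% and 9.17% of all genes). These included the contractile genes Myh11 (49, 23.5, 44.7 and 71.3 CPM in cKO;S/+, against 80, 112, 91.1 and 85.9 CPM in cKO;S/S, with a difference of -0.97 on the log2 scale, and -1.24 without replicate 14, adjusted p = 0.0262) and Tagln (a log2 fold change of -0.73, and -0.83 without replicate 14, adjusted p = 0.0527). For endothelium (0 higher and 0 lower of 13, median 0.11) and ependyma with choroid plexus (0 and 0 of 10, median -0.016) no member had an unadjusted p under 0.05.

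Genes of astrocytes themselves differed little, with few exceptions. All 20 astrocyte markers had a positive log2 fold change, but 1 of 20 was higher at an unadjusted p under 0.05 (9.17% of all genes were), with a median of 0.16. That gene was Gfap (Entrez 14580, chromosome 11, 102887336 to 102897200), the intermediate filament protein of reactive astrocytes, with 420.3, 465, 433 and 175 CPM in cKO;S/+, against 121, 129.8, 141 and 245 CPM in cKO;S/S, and 158 to 259.6 CPM in ctrl-2. Replicates 8, 9 and 10 were above every other library, and replicate 14 was inside the cKO;S/S range (a log2 fold change of 1.23, SE 0.29, unadjusted p = 0.00114), and the fold was 2.76 without it (a log2 fold change of 1.46, adjusted p = 0.00425). Slc1a2, the main glutamate transporter, had 10695 to 14426 CPM in cKO;S/+ replicates 8, 9 and 10 and 13649 CPM in replicate 14, against 8981 to 16470.2 CPM in cKO;S/S (a log2 fold change of 0.091, unadjusted p = 0.605). Log2 fold changes were 0.14 for its relative Slc1a3 (unadjusted p = 0.319), 0.17 for Glul, glutamine synthetase (unadjusted p = 0.158), 0.22 for Gja1, connexin 43 (unadjusted p = 0.142) and 0.29 for Gjb6, connexin 30 (unadjusted p = 0.0716). Without replicate 14 these 4 log2 fold changes were 0.19, 0.23, 0.28 and 0.39, with adjusted p of 0.414, 0.21, 0.251 and 0.109, and that of Slc1a2 was 0.067 (adjusted p = 0.873). Among 20 transporter and channel genes, 0 were higher and 0 lower, with a median of 0.15. A p above the threshold does not show the genotypes to be equal.

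Of 25 measured reactive astrocyte genes, 11 were higher and 1 lower (9.17% and 9.11% of all genes), and 10 were called higher without replicate 14, as were 5.73% of all genes (the median log2 fold change was 0.28, and 0.31 without replicate 14). Among the 5 with the smallest p were Gfap, Cxcl10, H2-D1, Psmb8 and Srgn, of which H2-D1 and Psmb8 are also in the MHC class I list. With the microglia covariate and without replicate 14, 5 of 25 were higher at an unadjusted p under 0.05, as were 503 of all 15089 genes. Genes of immature astrocytes and fate regulators had 3 lower and 0 higher of 21. Tnc, the matrix protein tenascin C of young astrocytes, had 43.5, 40.2, 38.7 and 58.7 CPM in cKO;S/+, against 65.7, 57.9, 59.7 and 89.3 CPM in cKO;S/S, and 87.2 to 114 CPM in ctrl-2. All mutant libraries but cKO;S/S replicate 18 lay below every ctrl-2 library. Between the mutants the difference was a log2 fold change of -0.59, SE 0.16, unadjusted p = 0.00253, and -0.74 without replicate 14 (adjusted p = 0.0109). Fabp7, the brain lipid-binding protein of radial glia, had 85.5 to 100.4 CPM in cKO;S/+ replicates 8, 9 and 10 and 117 CPM in replicate 14, against 101 to 144 CPM in cKO;S/S (a log2 fold change of -0.36, and -0.45 without replicate 14, adjusted p = 0.0601), and Ptn, the growth factor pleiotrophin, had a log2 fold change of -0.22 (unadjusted p = 0.052), and the log2 fold change was -0.28 without replicate 14 (adjusted p = 0.113). Synaptogenic factors and matrix genes were 3 higher and 4 lower of 21 (9.17% and 9.11% of all genes), with a median of 0.007. Nlgn3, an adhesion molecule of synapses and glia, had 104, 107, 121 and 122 CPM in cKO;S/+, against 137, 133, 135 and 141 CPM in cKO;S/S and did not overlap (a log2 fold change of -0.27, SE 0.067, unadjusted p = 0.00172), and the log2 fold change was -0.30 without replicate 14 (adjusted p = 0.0208). Vcan, versican, had 62.9 to 82.6 CPM in cKO;S/+ replicates 8, 9 and 10 and 134 CPM in replicate 14, against 86.3 to 212 CPM in cKO;S/S (a log2 fold change of -0.73, and -1.01 without replicate 14, adjusted p = 0.0207). Sparc, a secreted antagonist of synapse formation that microglia also make, had 2202, 2002, 2329 and 1926 CPM in cKO;S/+, against 1599.6, 1364, 1751 and 1722 CPM in cKO;S/S, also without overlap (a log2 fold change of 0.39, SE 0.12, unadjusted p = 0.00676), and the log2 fold change was 0.44 without replicate 14 (adjusted p = 0.05). Of 16 genes of TGF-beta and endothelin signalling, 7 were higher and 0 lower, and 4 were called higher. Tgfbr2, a receptor subunit of TGF-beta, had a log2 fold change of 0.51, and 0.58 without replicate 14 (adjusted p = 0.0238), and 0.15 with the microglia covariate over all libraries.

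**Figure D5:**
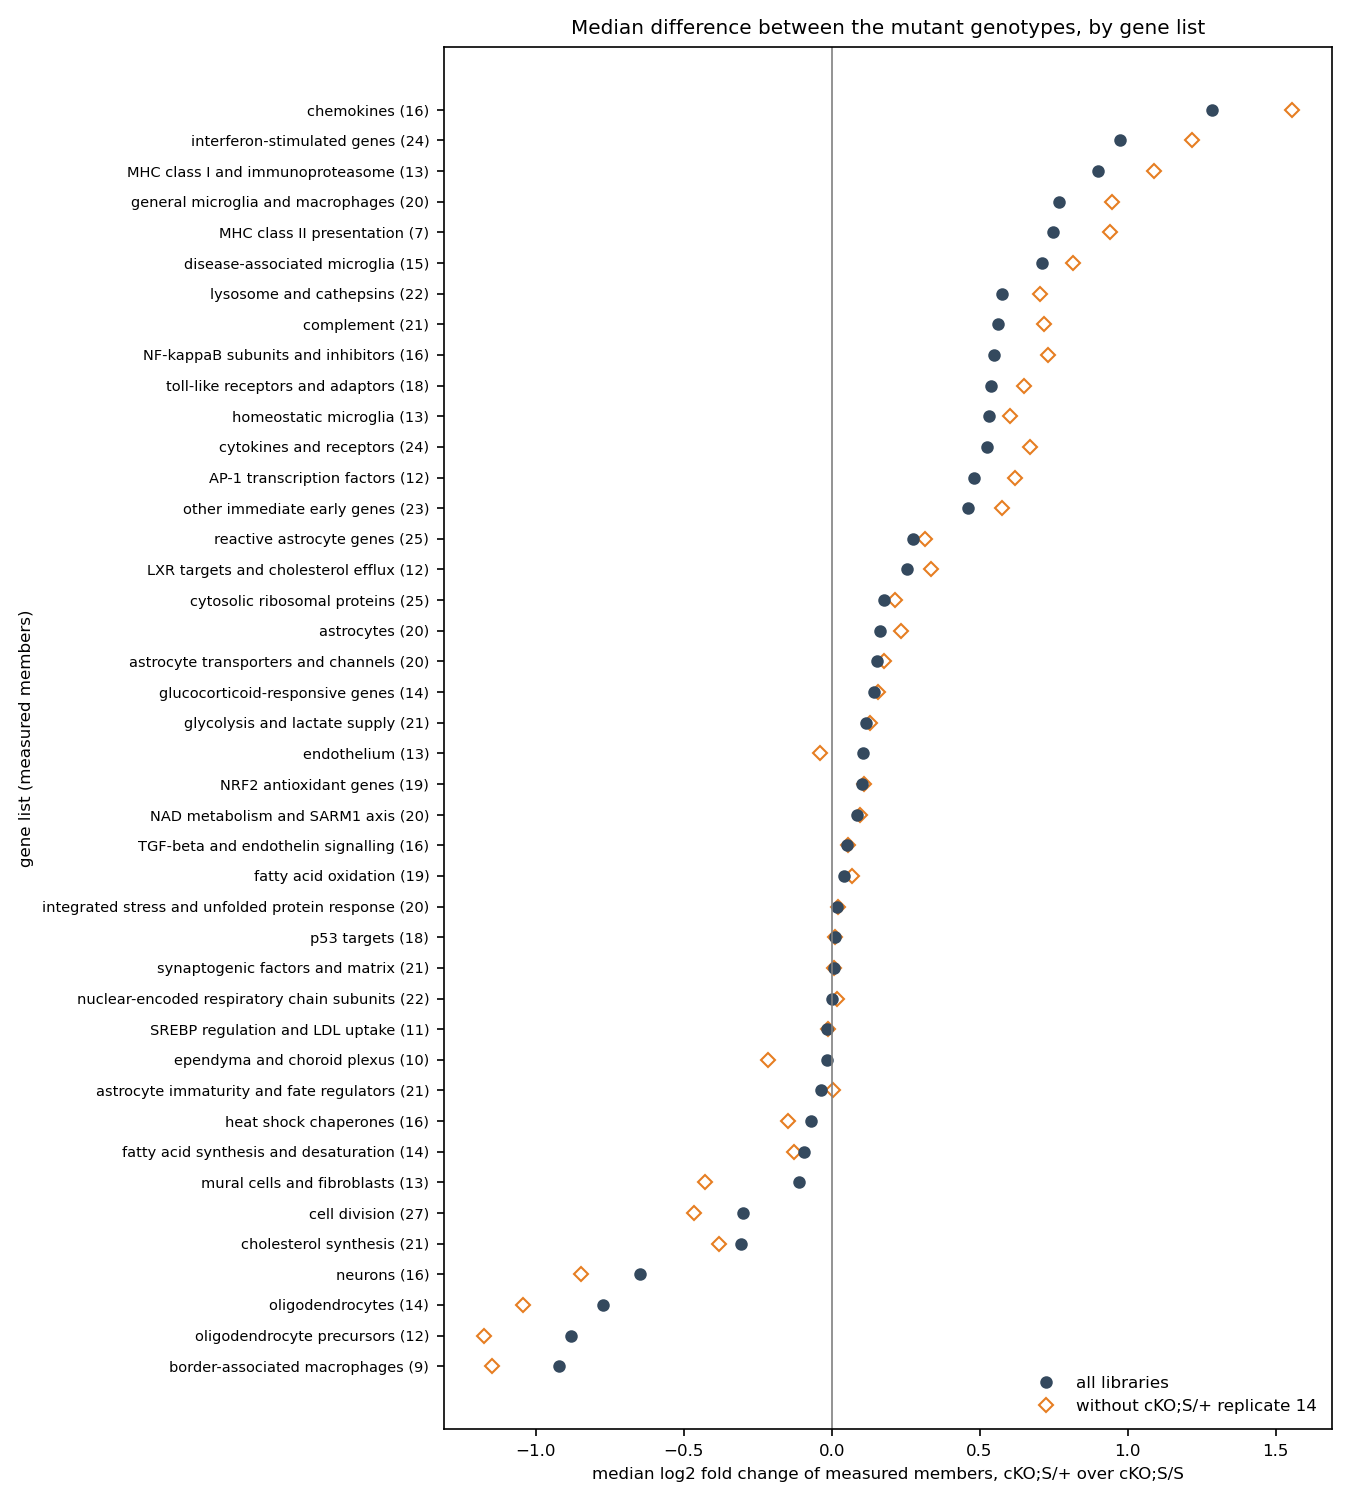
Median log2 fold change of cKO;S/+ over cKO;S/S for the measured members of each gene list with 7 or more of them, with all libraries (filled circles) and without the library labelled cKO;S/+ replicate 14 (open diamonds). Immune and lysosomal lists lie to the right, from 0.52 to 1.29 with all libraries, and border-associated macrophages, oligodendrocyte lineage, neurons and cholesterol synthesis lie to the left, from -0.31 to -0.92.

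The NAD metabolism and SARM1 axis, measured in 20 of 23 genes, had 2 higher and 2 lower, a share close to that of all genes, with a median of 0.087. Cd38, which encodes an NAD glycohydrolase of the cell surface, had 42.8, 58.8, 51.2 and 37.9 CPM in cKO;S/+, against 25, 35.6, 37.7 and 32.9 CPM in cKO;S/S, and 35.5 to 52.9 CPM in ctrl-2. Its genotypes did not overlap (a log2 fold change of 0.54, SE 0.16, unadjusted p = 0.00511), and the log2 fold change was 0.64 without replicate 14 (adjusted p = 0.025). The ctrl-2 libraries overlapped with both genotypes. Parp14, an interferon-induced ADP-ribosyltransferase gene, had 61.2, 53.1, 95.7 and 28.6 CPM in cKO;S/+, against 25.8, 25.4, 32.8 and 27.5 CPM in cKO;S/S (a log2 fold change of 1.1, SE 0.28, unadjusted p = 0.00157), and the log2 fold change was 1.33 without replicate 14 (adjusted p = 0.00381). The lower ones were Slc25a51 and Sirt2. Slc25a51, the NAD carrier of mitochondria, had 37.9, 37, 40 and 43.9 CPM in cKO;S/+, against 45.7, 45.2, 46.4 and 44.8 CPM in cKO;S/S (a log2 fold change of -0.20, SE 0.062, unadjusted p = 0.00736), and the log2 fold change was -0.25 without replicate 14 (adjusted p = 0.0214). Sirt2 encodes an NAD-dependent deacetylase abundant in oligodendrocytes. The log2 fold change of Sirt2 was -0.48, and -0.58 without replicate 14 (adjusted p = 0.112). Glycolysis and lactate supply had 3 higher and 0 lower of 21 (9.17% and 9.11% of all genes). These were Hk2, hexokinase 2 (a log2 fold change of 0.63, and 0.80 without replicate 14, adjusted p = 0.0384), Pfkfb3, a regulator of glycolytic rate (270.4, 207, 258 and 148 CPM in cKO;S/+, against 138, 155, 164 and 122 CPM in cKO;S/S, a log2 fold change of 0.61, and 0.76 without replicate 14, adjusted p = 0.00515), and the lactate transporter gene Slc16a3 (a log2 fold change of 0.88, and 1.08 without replicate 14, adjusted p = 0.0128). Over all libraries with the microglia covariate, the log2 fold change was -0.13 for Hk2, 0.19 for Pfkfb3, 0.22 for Slc16a3 and 0.27 for Parp14. In the same fit it was 0.53 for Cd38, -0.16 for Slc25a51 and -0.41 for Sirt2. With the oligodendrocyte markers as a covariate instead, the log2 fold change of Sirt2 was -0.0012 and that of Slc25a51 -0.15. None of the 22 nuclear-encoded respiratory chain genes had an unadjusted p under 0.05 in the fit without covariate, with a median of 0.0013.

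Stress lists had counts near those of all genes, of which 9.17% were higher and 9.11% lower at an unadjusted p under 0.05. Of 18 p53 targets, 2 were higher and 1 lower. The higher ones were Cdkn1a, the cell cycle inhibitor p21 (56.6, 49.7, 47.8 and 33.1 CPM in cKO;S/+, against 33.1, 27.8, 33.2 and 27.9 CPM in cKO;S/S, a log2 fold change of 0.62, and 0.75 without replicate 14, adjusted p = 0.00155), and Pmaip1, the pro-apoptotic protein NOXA (27.2 to 36.5 CPM in cKO;S/+ replicates 8, 9 and 10 and 15.3 CPM in replicate 14, against 11 to 17.1 CPM in cKO;S/S, a log2 fold change of 1.04, and 1.24 without replicate 14, adjusted p = 0.00271). Heat shock chaperones were 0 higher and 1 lower of 16. The integrated stress and unfolded protein response had 2 higher and 0 lower of 20, among them Sdf2l1, an endoplasmic reticulum chaperone component (a log2 fold change of 0.43, and 0.48 without replicate 14, adjusted p = 0.0463). NRF2 antioxidant genes had 1 higher and 1 lower of 19, and the higher one was Nfe2l2, which encodes NRF2 itself (102, 107, 113 and 80.5 CPM in cKO;S/+, against 59.8, 76.4, 82.4 and 70.3 CPM in cKO;S/S, a log2 fold change of 0.48, and 0.57 without replicate 14, adjusted p = 0.00709). Glucocorticoid-responsive genes had 2 higher and 0 lower of 14, one of them the kinase gene Sgk1 (313, 284, 384 and 249.6 CPM in cKO;S/+, against 227, 199, 236 and 158 CPM in cKO;S/S, a log2 fold change of 0.59, and 0.67 without replicate 14, adjusted p = 0.0263). Cytosolic ribosomal proteins had 8 higher and 0 lower of 25, with a median of 0.18, among them Rpl10 (a log2 fold change of 0.33, and 0.36 without replicate 14, adjusted p = 0.0695), but 0 were called. Over all libraries with the microglia covariate, the log2 fold change was 0.34 for Cdkn1a, 0.26 for Pmaip1 and 0.18 for Sdf2l1. In the same fit it was 0.24 for Nfe2l2, 0.13 for Sgk1 and 0.073 for Rpl10. Cell division genes had 5 lower and 0 higher of 27, 25 with a negative log2 fold change, the median log2 fold change was -0.30, and -0.46 without replicate 14, and 6 were called lower without it. Bub1, a kinase of the spindle checkpoint, had 3.32 to 4.44 CPM in cKO;S/+ replicates 8, 9 and 10 and 6.18 CPM in replicate 14, against 5.34 to 8.5 CPM in cKO;S/S (a log2 fold change of -0.53, and -0.71 without replicate 14, adjusted p = 0.0261), and Cenpe, a kinetochore motor, had 18 to 20 CPM in cKO;S/+ replicates 8, 9 and 10 and 28.4 CPM in replicate 14, against 25.2 to 30.1 CPM in cKO;S/S (a log2 fold change of -0.34, and -0.51 without replicate 14, adjusted p = 0.0131).

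The lower genes that follow belong to no fixed list. Pld5 (Entrez 319455, chromosome 1, 175962301 to 176281512), a member of the phospholipase D family, had 1.71, 1.26, 1.14 and 1.66 CPM in cKO;S/+, against 2.9, 3.16, 3.52 and 2.76 CPM in cKO;S/S and 1.81 to 2.05 CPM in ctrl-2 (a log2 fold change of -1.09, SE 0.18, unadjusted p = 4.21e-05), and the log2 fold change was -1.16 without replicate 14 (adjusted p = 0.00738). Epha5, an ephrin receptor gene, had 16.2, 18.9, 16.5 and 23.5 CPM in cKO;S/+, against 28.4, 27.3, 26.6 and 31.5 CPM in cKO;S/S (a log2 fold change of -0.60, SE 0.11, unadjusted p = 0.000143), and the log2 fold change was -0.72 without replicate 14 (adjusted p = 0.00182). Both separated the genotypes, with replicate 14 nearest to the cKO;S/S libraries for Epha5. Sox12, a transcription factor of progenitors, had 22.8, 27.3, 27.4 and 31.2 CPM in cKO;S/+, against 43.9, 39.1, 38.3 and 32.7 CPM in cKO;S/S (a log2 fold change of -0.51, SE 0.10, unadjusted p = 0.000351), and the log2 fold change was -0.58 without replicate 14 (adjusted p = 0.00883). Slc7a4, of the family of cationic amino acid transporters, had 4.74, 5.27, 6.0 and 7.45 CPM in cKO;S/+, against 9.86, 8.38, 9.54 and 9.39 CPM in cKO;S/S (a log2 fold change of -0.67, SE 0.14, unadjusted p = 0.000324), and the log2 fold change was -0.80 without replicate 14 (adjusted p = 0.00464). Rlbp1, a retinaldehyde-binding protein gene of glia, had 24.1, 23.8, 26.3 and 25.5 CPM in cKO;S/+, against 34.4, 29.6, 32.1 and 33.2 CPM in cKO;S/S (a log2 fold change of -0.37, SE 0.077, unadjusted p = 0.000329). Here replicate 14 lay among the other cKO;S/+ libraries, and the log2 fold change was -0.38 without replicate 14 (adjusted p = 0.0176). Unc79, a subunit of the sodium leak channel complex, had 32.2, 35.9, 32.9 and 38.5 CPM in cKO;S/+, against 45.3, 42.8, 44.5 and 42.7 CPM in cKO;S/S (a log2 fold change of -0.33, SE 0.075, unadjusted p = 0.000797), and the log2 fold change was -0.38 without replicate 14 (adjusted p = 0.0125). Cacna2d2, a calcium channel subunit gene, had a log2 fold change of -0.50, and -0.58 without replicate 14 (adjusted p = 0.0113). Gpc1, the heparan sulfate proteoglycan glypican 1, had 46.6, 42, 48.8 and 67.3 CPM in cKO;S/+, against 81, 68.9, 77.9 and 76.4 CPM in cKO;S/S (a log2 fold change of -0.57, and -0.73 without replicate 14, adjusted p = 0.00419). Zfp536, a zinc finger repressor of neuronal differentiation, had 12.2, 11.4, 11.9 and 22.1 CPM in cKO;S/+, against 26.2, 25.9, 25.6 and 28.2 CPM in cKO;S/S (a log2 fold change of -0.88, and -1.16 without replicate 14, adjusted p = 0.00547). Nptx1, the synaptic protein neuronal pentraxin 1, had 5.37, 6.35, 4.19 and 13.6 CPM in cKO;S/+, against 17.7, 12.9, 15.8 and 17.8 CPM in cKO;S/S (a log2 fold change of -1.13, and -1.6 without replicate 14, adjusted p = 0.00586). With the oligodendrocyte markers as a covariate over all libraries, log2 fold changes were -0.39 for Zfp536, -0.32 for Gpc1 and -0.72 for Nptx1. Those of Pld5 and Rlbp1 were -1.08 and -0.44. With the microglia covariate they were -0.49 for Zfp536, -0.43 for Gpc1, -0.56 for Nptx1, -1.09 for Pld5 and -0.35 for Rlbp1.

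Set beside the control, cKO;S/S differed from ctrl-2 in no gene of any list by an adjusted p under 0.05, while cKO;S/+ had called genes in most immune lists, with all its libraries included. For general microglia, 19 of 20 were called higher in cKO;S/+ than in ctrl-2, with a median of 1.11, and the median of cKO;S/S against ctrl-2 was 0.30 with 0 called. For interferon-stimulated genes the counts were 15 and 0 of 24, with medians of 1.2 for cKO;S/+ and 0.19 for cKO;S/S. For cholesterol synthesis 11 and 0 of 21 were called, with medians of -0.46 and -0.11. The share of all genes called against ctrl-2 is not given here, so these counts cannot be set beside it. In other lists cKO;S/S lay farther from ctrl-2. The medians were 0.020 for cKO;S/+ and 0.87 for cKO;S/S in the neuron list, and -0.023 and -0.25 in the astrocyte list. These comparisons share the ctrl-2 libraries, and a call in one genotype and not in the other does not show that they differ, which the direct comparison of the mutants tests.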

How the data were processed

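RNA of bead-sorted cortical astrocytes was sequenced by the study from 12 mice, 4 per group, on Illumina instruments. Alignment to mm10 with STAR 2.7.10a, counting with featureCounts (Subread 2.0.3), quality control with FastQC 0.11.5 and edgeR 4.2.1 are listed by the submitters' notes. For the annotation and strand setting, the sources used here give nothing. The values analysed are raw counts per gene as deposited by the authors, and reads of overlapping or near-identical genes may be split between them. The log2 CPM, fold change, p-value and FDR columns of the authors' own comparisons were not used. Columns of other series numbered 0.

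Counts were fitted for all 12 libraries together in edgeR 4.0.16 (R 4.3.3) with TMM factors and the quasi-likelihood test, two-sided, with Benjamini-Hochberg adjustment over 15089 genes and a threshold of 0.05. The low-count filter of edgeR (minimum count 10, minimum total 15) removed 0 genes. Levels are CPM on TMM-scaled library sizes, and mean log2 levels used a prior count of 2. No set test was run: each of 43 gene lists (31 of pathways, 12 of cell types) is described by counts and medians. Members, lists and the handling of replicate 14 were chosen with earlier results of these data known. Genes were named by rule: the 15 per direction with the smallest p among those with mean log2 CPM of at least 0 and no overlap, up to 5 per list with the smallest p, the 3 most abundant per cell type list, and 10 per direction without replicate 14; others named were chosen after their values were seen. Not all genes that the rule gives are described. In simulated data, log2 fold changes of 1 were recovered for 96% of 100 genes and of 2 for 100%, with 9 false among 205 calls. The simulated counts were independent between genes, no library stood apart, and changes were set only in genes with higher counts. These rates therefore check the code and do not give the power in the real data, where 0 genes were called with all libraries. Alternatives were other normalizations and filters, edgeR's likelihood ratio test, limma-voom (limma 3.58.1), DESeq2 1.42.0, covariates, and each library left out. Of the genes, 14107 matched an Entrez entry, and coordinates and promoter windows are those of RefSeq GRCm38.p6. Figures were drawn with matplotlib 3.10.9 under python 3.11.15. Total counts of 16506627 to 22159404 per library set the counting error of low genes, and the p-values measure the spread between mice, 1 library each.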

Additional observations from a re-analysis of the deposited data

Results flagged for a closer look

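Within each group of 4 libraries, the gap of the extreme library to its nearest neighbour was divided by the range of the group and compared with the critical value of 0.829. Of 350 groups tested (262 of genes, the rest of lists and of total counts), 22 exceeded it or reached it (6.29%), and 13 of the 22 concern cKO;S/+ replicate 14. The critical value is one that about 5% of independent groups pass by chance. These groups are related, and some genes were named by their p without replicate 14, so neither share can be judged against that rate.

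That library was the low extreme of its group for Itgax (ratio 0.888), Csf1 (0.905), Glipr1 (0.875), Lyz2 (0.841), Cxcl10 (0.96), Tlr2 (0.855), Tlr1 (0.864), Gadd45b (0.846) and Gfap (0.897), and for the mean level of the disease-associated microglia list (0.891). It was the high extreme for Nmnat2 (0.918), Zfp536 (0.908) and the myelin gene Mobp (0.973).

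In cKO;S/S, replicate 18 was the low extreme for Lyz2 (0.852), Mbp (0.894), Sdf2l1 (0.851) and the integrated stress and unfolded protein response list (0.941), and the high extreme for Il1r1 (0.894). Replicate 17 was the high extreme for Ctsb (0.847) and Npc2 (0.829), replicate 16 the low extreme for Abcg1 (0.891), and replicate 15 the low extreme for the respiratory chain list (0.873).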

How the results depend on the processing

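The counts of called genes, 0 higher and 0 lower with all libraries, became 303 and 173 by the likelihood ratio test and 396 and 229 by DESeq2. Leaving out one library at a time gave 0 to 865 higher and 0 to 812 lower, and calls arose only without cKO;S/+ replicate 14. Without that library there were 385 and 213 with Xist as a covariate and 4 and 0 with the microglia markers as a covariate, where 503 and 832 genes had an unadjusted p under 0.05. The libraries that express Xist gave 325 and 393. The numbers at an unadjusted p under 0.05, 1383 and 1375, became 172 and 234 with the microglia covariate and 311 and 343 with the oligodendrocyte markers as a covariate, and 867 to 1930 and 845 to 2057 when one library was left out. They were 867 and 906 without cKO;S/+ replicate 8, and 880 and 845 without replicate 10.

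For the 131 genes described, 3668 values under 28 alternatives were obtained, of which 21 changed sign, 428 passed the threshold that the value with all libraries missed, and 3219 did neither. With the microglia covariate the log2 fold change was -0.0095 for Cx3cr1, -0.081 for Csf1r, -0.11 for Cxcl10, -0.0089 for Tnfaip3, -0.067 for Atf3, -0.082 for Junb and -0.13 for Hk2. With that covariate and without replicate 14 it was -0.21 for Cx3cr1, -0.26 for Csf1r, -0.11 for Atf3, -0.051 for Junb, -0.18 for Hk2, -0.023 for Sgk1, -0.090 for Rpl10 and 0.079 for Fabp5. With the oligodendrocyte covariate it was 0.10 for Mrc1, 0.089 for Mbp and 0.0051 for Cnp. Fabp5 had 0.031 without cKO;S/S replicate 18 and 0.019 without cKO;S/+ replicate 14 with Xist as a covariate, and Slc1a2 ranged from -0.040 without cKO;S/S replicate 15 to 0.27 without replicate 18. The cause of these changes was not tested.

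No paired analysis was possible because the groups compared share no replicate numbers. Each genotype has 4 libraries, of which 1 in cKO;S/+ stands apart, and sex is unequal between the genotypes. A covariate computed from microglial or oligodendrocyte genes also takes up any genotype difference carried by them.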
